A study of Homo sapiens with 18 samples.

Results

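The transcription factors SNAI1, SNAI2, TWIST1, TWIST2, ZEB1 and ZEB2, which promote the epithelial-mesenchymal transition (EMT), and GRHL2, OVOL1 and OVOL2, which oppose it, were followed across the MCF10 breast cancer progression model. These 9 genes were chosen by name among the 35933 genes with values in the deposited table, and all 9 were found. The choice was made with earlier results of these data known. RNA sequencing covered 18 libraries in 6 groups, with 3 replicates named a, b and c in each. MCF10A is a spontaneously immortalized, non-tumorigenic human breast epithelial line, MCF10AT1 was made from it by stable integration of a mutated HRas, and MCF10CA1h came from MCF10AT1 through serial xenografts in mice. In each line a control genotype, labelled Control Negative CRISPR, was set against the genotype labelled METTL3 CRISPR knockdown, in cells grown in the same medium with horse serum, insulin, hydrocortisone, cholera toxin and epidermal growth factor. METTL3 is the catalytic subunit of the complex that writes N6-methyladenosine on RNA, and the guide targeted its first exon. Cells of both genotypes were sorted for mCherry from the transfected plasmid and taken through single-cell dilution, so each group is 1 clonal line, and the spread between replicates holds no difference between clones. A difference between genotypes and a difference between clones therefore cannot be told apart, and p-values measure only the spread between these libraries.

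EMT is the process by which epithelial cells lose their junctions and polarity and take on a motile, mesenchymal state. SNAI1 and SNAI2 are zinc-finger repressors, and ZEB1 and ZEB2 are zinc-finger homeodomain repressors. All of these bind E-box elements in the promoters of E-cadherin and other junction genes. TWIST1 and TWIST2 are basic helix-loop-helix factors that work upstream of or beside them. GRHL2 is an activator that maintains junction genes, and OVOL1 and OVOL2 are zinc-finger repressors that hold down mesenchymal genes, with ZEB1 a known target of GRHL2 and OVOL2. The ZEB factors and microRNAs of the miR-200 family repress each other. In breast epithelium SNAI2 is also a factor of normal basal cells, so its RNA is not a sign of a mesenchymal state by itself.

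Promoter windows of 3 epithelial genes, marked where they match motifs of these factors, and the sequences of 3 microRNAs are shown. The genes and the microRNA host transcripts are measured further on, and the 3 genes were picked after their values were seen. The promoter windows are the 250 bases before the RefSeq gene start (GRCh38.p14), written 5′ to 3′ on the strand of the gene, and come from RAB25 (chr1:156060910-156061159, plus strand), CRB3 (chr19:6464021-6464270, plus strand) and AP1M2 (chr19:10587313-10587562, minus strand). RAB25 is a vesicle-trafficking GTPase, CRB3 a polarity protein of the apical membrane and AP1M2 a subunit of the epithelial clathrin adaptor. Capitals mark the E-box CACCTG in either orientation and, in CRB3, the OVOL motif CCGTTA, which ends where an E-box starts.
RAB25: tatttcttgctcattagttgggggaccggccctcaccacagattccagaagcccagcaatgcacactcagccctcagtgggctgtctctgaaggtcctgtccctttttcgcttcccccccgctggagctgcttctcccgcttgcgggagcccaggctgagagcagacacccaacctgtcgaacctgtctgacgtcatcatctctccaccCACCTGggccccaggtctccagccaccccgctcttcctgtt
CRB3: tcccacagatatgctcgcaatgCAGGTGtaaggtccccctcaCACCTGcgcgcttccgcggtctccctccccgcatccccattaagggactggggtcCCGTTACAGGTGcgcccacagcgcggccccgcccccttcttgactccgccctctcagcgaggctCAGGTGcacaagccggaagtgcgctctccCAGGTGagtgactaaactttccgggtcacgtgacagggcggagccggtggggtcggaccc
AP1M2: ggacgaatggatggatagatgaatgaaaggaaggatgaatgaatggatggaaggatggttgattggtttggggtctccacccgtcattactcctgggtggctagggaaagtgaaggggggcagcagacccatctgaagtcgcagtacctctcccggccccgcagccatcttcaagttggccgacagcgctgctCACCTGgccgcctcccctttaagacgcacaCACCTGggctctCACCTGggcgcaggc
RAB25 held 1 E-box, CRB3 held 5 and AP1M2 held 3.

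E-box CACCTG was searched on both strands in the same window of 27305 RefSeq promoters and was present in 17.5% of them. Of 26 epithelial target genes listed for this work, 13 had a promoter in the table, and 7 of those held the E-box (OCLN, CRB3, PATJ, RAB25, CDS1, DSP and AP1M2). Of 16 mesenchymal target genes, 11 had a promoter in the table, and 2 held it (AXL and S100A4). Promoters of TWIST2, ZEB1 and ZEB2 were matched among the 9 factors, and that of ZEB1 held 1 E-box, whose first base was 57 bases before the start. The palindrome AACCGGTT, searched for the grainyhead factors, occurred in 0.106% of all promoters and in none of the matched windows of these lists. The OVOL motif CCGTTA occurred in 2.52% of all promoters and in those of CRB3 and S100A4. These matches describe letters in a window and are not measurements of binding.

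The microRNAs are those whose host transcripts were measured, miR-200c-3p and miR-141-3p from chromosome 12 (MIR200CHG) and miR-205-5p from chromosome 1 (MIR205HG). Their mature RefSeq sequences are written 5′ to 3′ with the seed, bases 2 to 8, in capitals.
miR-200c-3p: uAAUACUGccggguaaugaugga
miR-141-3p: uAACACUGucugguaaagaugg
miR-205-5p: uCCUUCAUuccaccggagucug
No pair among these had the same seed. The mature microRNAs themselves were not measured in these libraries.

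The values are DESeq2-normalized counts made by the authors, a signal that summed to between 21347352 and 31681834 per library. METTL3 ran from 459 to 752 in the control and from 510 to 981 in the METTL3 libraries of MCF10A, from 805 to 1016 and from 752 to 902 in MCF10AT1, and from 1022 to 1280 and from 745 to 843 in MCF10CA1h. It was lower past the threshold in MCF10CA1h (log2 fold change -0.49, adjusted p = 0.0234), while the values were 0.33 with adjusted p = 0.618 in MCF10A and -0.17 with adjusted p = 0.707 in MCF10AT1. The groups are therefore named by their labels. The paper read the knockdown from METTL3 protein on Western blots and reported a lesser effect on METTL3 RNA by PCR. It found significantly lower m6A in knockdown lines of MCF10AT1 and MCF10CA1h, and a decrease that was not significant in MCF10A. Protein was not measured in these libraries, so the RNA values do not show how far METTL3 protein was lowered. Within a line, limma was run on log2(normalized count + 1), leaving out genes whose mean was under 10, and a gene was called at a Benjamini-Hochberg adjusted p under 0.05. MCF10AT1 control replicate c stood apart from replicates a and b for ZEB1, and calls of the 9 factors that were gained or lost without it are given beside the values. Because its ZEB1 value singled it out, the ZEB1 differences of MCF10AT1 were bound to be larger without it. The ZEB1 spread was bound to be smaller, which lowers p for ZEB1 in every fit that held this library. This library also stood apart for other genes, such as KLF5 (718, 198 and 4162 in replicates a, b and c) and SMAD4 (354, 181 and 1459). In bulk RNA, fewer cells with a transcript and less of it per cell cannot be told apart.

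**Figure D1:**
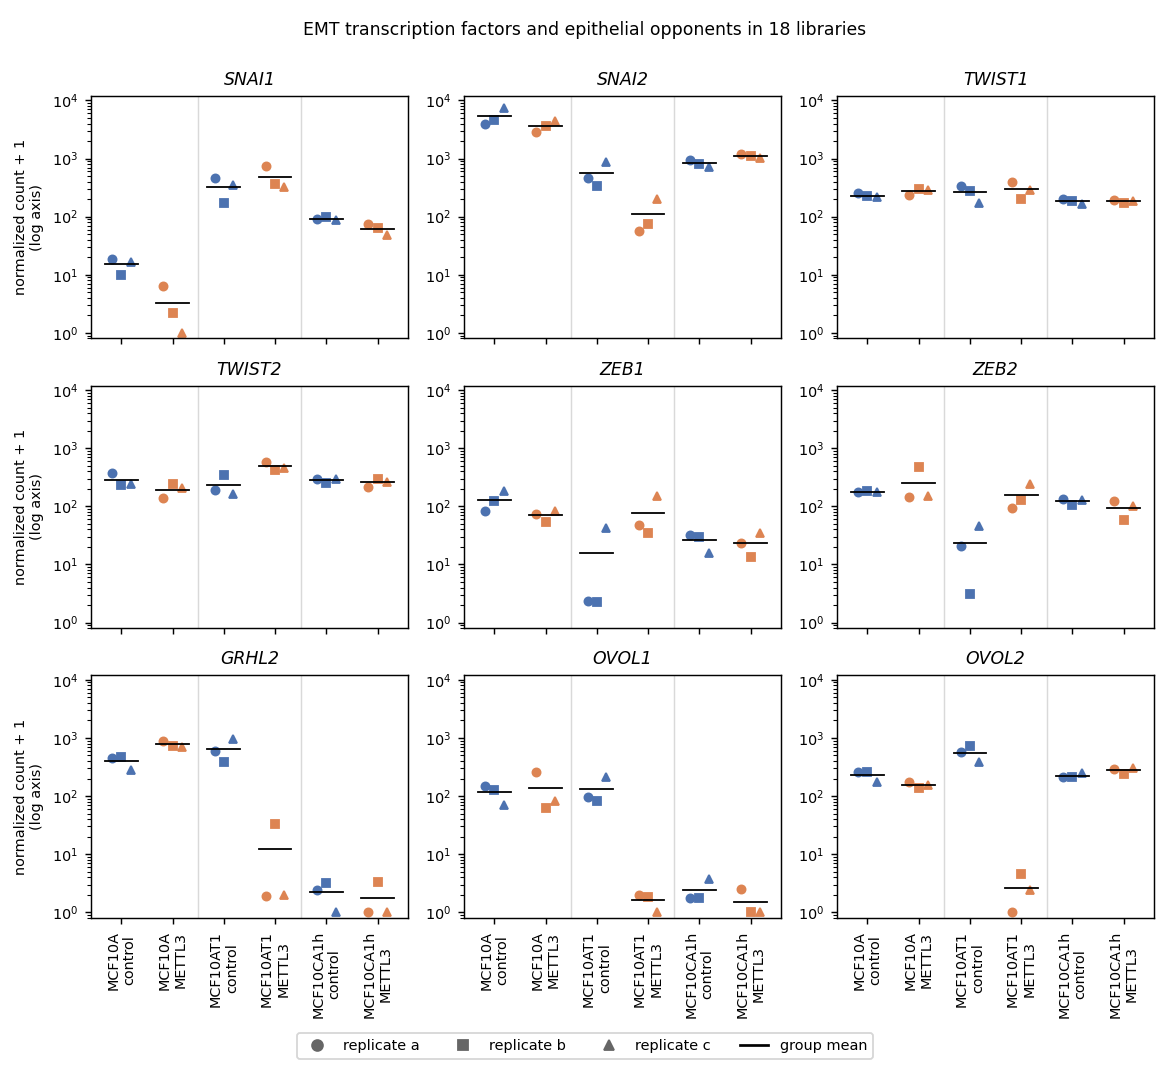
Normalized count plus 1 (log axis) of the 9 genes in each of the 18 libraries, by line and genotype, with controls in blue, METTL3 libraries in orange, markers for replicates a, b and c and a black line at the group mean. GRHL2, OVOL1 and OVOL2 drop toward 0 in the MCF10AT1 METTL3 libraries, and GRHL2 and OVOL1 are near 0 in both groups of MCF10CA1h.

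The control libraries were compared first, to show where each factor stood in the control clone of each line. SNAI2 (chr8:48917598-48921740, hg38) was highest in MCF10A, with 3933, 4640 and 7459 in replicates a, b and c. It measured 469, 339 and 865 in MCF10AT1 and 949, 805 and 712 in MCF10CA1h. Every MCF10A library was thus above every library of the other lines, which overlapped with each other. Between those lines the log2 difference of MCF10CA1h from MCF10AT1 was 0.66 (adjusted p = 0.21), and without MCF10AT1 control replicate c it was 1.03 and was called (adjusted p = 0.0207). The log2 difference from MCF10A was -3.31 (SE 0.35, adjusted p = 0.000661 from limma) in MCF10AT1 and -2.65 (SE 0.35, adjusted p = 0.000755) in MCF10CA1h.

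SNAI1 (chr20:49982980-49988886), the other Snail factor, had the opposite order. Its values were 17.9, 9.03 and 15.9 in MCF10A, 464, 172 and 348 in MCF10AT1 and 88.5, 95.9 and 87.1 in MCF10CA1h. None of these groups overlapped. SNAI1 was higher than in MCF10A by 4.37 on the log2 scale in MCF10AT1 (SE 0.41, adjusted p = 0.000413) and by 2.63 in MCF10CA1h (SE 0.41, adjusted p = 0.00149). MCF10CA1h was in turn below MCF10AT1 (-1.73, SE 0.41, adjusted p = 0.0164), a call that was lost without MCF10AT1 control replicate a or any 1 of the MCF10CA1h controls (adjusted p between 0.0559 and 0.0646).

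ZEB1 (chr10:31318495-31529814) measured 83.2, 121 and 180 in MCF10A, 1.36, 1.28 and 41.0 in MCF10AT1 and 30.9, 29.2 and 14.8 in MCF10CA1h. The MCF10AT1 group held a pair of libraries near 0 and one above every MCF10CA1h library. The difference of MCF10AT1 from MCF10A was -4.34 (SE 1.00, adjusted p = 0.0142), and the call was lost without MCF10A control replicate b (adjusted p = 0.0523), without MCF10A control replicate c (0.0603) or without MCF10AT1 control replicate a (0.0564). MCF10CA1h did not pass the threshold against either line (adjusted p = 0.0937 against MCF10A and 0.174 against MCF10AT1). Without MCF10AT1 control replicate c the difference of MCF10AT1 from MCF10A was -5.73 (adjusted p = 0.000235), and both differences of MCF10CA1h passed the threshold, at -2.31 (adjusted p = 0.00298) and 3.42 (adjusted p = 0.00145). The difference of MCF10CA1h from MCF10A was -2.31 with that library too, and only its SE fell, from 1.00 to 0.45, as the controls share a fit. The difference from MCF10A also passed with a pseudocount of 5 (adjusted p = 0.0386) and when those lines were fitted alone (0.00244).

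ZEB2 (chr2:144364364-144521057) was lowest in the same MCF10AT1 libraries. It measured 173, 184 and 177 in MCF10A, 19.9, 2.04 and 45.7 in MCF10AT1 and 132, 106 and 125 in MCF10CA1h, and none of the groups overlapped. MCF10AT1 was below MCF10A (-3.64, SE 0.80, adjusted p = 0.0121) and below MCF10CA1h, where the difference of MCF10CA1h from MCF10AT1 was 3.08 (SE 0.80, adjusted p = 0.0232). The latter call was lost without any 1 of the 3 MCF10CA1h controls (adjusted p between 0.0672 and 0.0760) and when those lines were fitted alone (0.0568).

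Neither TWIST gene passed the threshold between any pair of control lines with all libraries in the fit. TWIST1 (chr7:19020991-19117636) measured 251, 222 and 214 in MCF10A, 343, 278 and 172 in MCF10AT1 and 204, 182 and 164 in MCF10CA1h. TWIST2 (chr2:238848032-238910534) measured 378, 228 and 240 in MCF10A, 193, 348 and 159 in MCF10AT1 and 292, 248 and 298 in MCF10CA1h. Groups overlapped in all of these comparisons but that of TWIST1 in MCF10CA1h and MCF10A, and the log2 differences were between -0.48 and 0.15 for TWIST1 and between -0.32 and 0.34 for TWIST2. Without MCF10AT1 control replicate c, TWIST1 was lower in MCF10CA1h than in MCF10AT1 (-0.76, adjusted p = 0.0329).

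Among the epithelial factors, GRHL2 (chr8:101492439-101669726) and OVOL1 (chr11:65787063-65797214) were nearly absent from MCF10CA1h. GRHL2 measured 457, 473 and 282 in MCF10A and 587, 383 and 963 in MCF10AT1, against 1.44, 2.13 and 0 in MCF10CA1h. OVOL1 measured 147, 126 and 69.9 in MCF10A and 96.5, 80.8 and 211 in MCF10AT1, against 0.77, 0.76 and 2.67 in MCF10CA1h. For both genes MCF10A and MCF10AT1 overlapped, and every MCF10CA1h library was far below them. Both passed the filter on low values through the other lines alone, so a difference from MCF10CA1h was built into their presence in the test. The log2 difference of MCF10CA1h from MCF10A was -7.65 for GRHL2 (SE 0.50, adjusted p = 2.82e-05) and -5.61 for OVOL1 (SE 0.51, adjusted p = 0.000136). These sizes depend on the pseudocount: they ranged from -8.17 to -6.03 for GRHL2 and from -6.00 to -4.17 for OVOL1 between pseudocounts of 0.5 and 5. Against MCF10AT1 the differences were -8.25 (adjusted p = 2.12e-05) and -5.73 (adjusted p = 0.000159).

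OVOL2 (chr20:17956979-18059188) did not share this loss. It measured 254, 255 and 171 in MCF10A, 562, 736 and 377 in MCF10AT1 and 215, 208 and 250 in MCF10CA1h. MCF10AT1 lay above the other lines, by 1.27 over MCF10A (SE 0.29, adjusted p = 0.0140), while MCF10CA1h was lower than MCF10AT1 by -1.26 (SE 0.29, adjusted p = 0.0142). Without MCF10A control replicate c the first of these calls was lost (adjusted p = 0.0573), as it was without MCF10AT1 control replicate a (0.0504) and when those lines were fitted alone (0.0540). The second was lost without MCF10AT1 control replicate a (0.0506), MCF10CA1h control replicate a (0.0578) or MCF10CA1h control replicate b (0.0613). MCF10CA1h and MCF10A overlapped (log2 difference 0.00, SE 0.29, adjusted p = 0.992).

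Counted over the controls, 5 of the 9 factors were called between MCF10AT1 and MCF10A, where 28.1% of all genes tested were called. The counts were 4 of 9 between MCF10CA1h and MCF10A (37.8% of all genes) and 5 of 9 between MCF10CA1h and MCF10AT1 (21.8% of all genes). Each line's controls enter more than one of these comparisons.

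**Figure D2:**
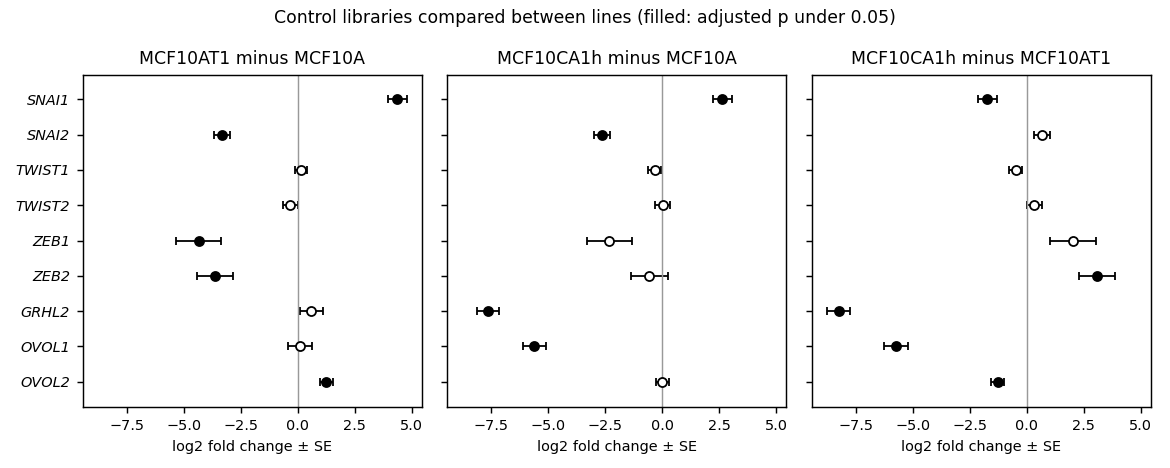
Log2 fold change with its standard error (bars) of the 9 factors between the control libraries of each pair of lines, 3 libraries per line, with filled circles for an adjusted p under 0.05. SNAI1 and SNAI2 lie on opposite sides of 0 against MCF10A, and GRHL2 and OVOL1 lie far below 0 in MCF10CA1h.

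The METTL3 libraries were then compared with the controls within each line, which addresses how the EMT factors stood in the METTL3 clone beside the control clone. In MCF10AT1 the epithelial opponents were almost completely lost. GRHL2 measured 587, 383 and 963 in control replicates a, b and c and 0.92, 32.6 and 0.98 in the METTL3 libraries, a mean of 644 ± 294 against 11.5 ± 18.3 (SD, n = 3 each). OVOL1 measured 96.5, 80.8 and 211 against 0.98, 0.84 and 0, and its mean went from 129 ± 71.1 to 0.607 ± 0.530 (SD, n = 3 each). OVOL2 measured 562, 736 and 377 against 0, 3.49 and 1.45, with means of 558 ± 180 and 1.65 ± 1.75 (SD, n = 3 each). No METTL3 library reached a control library for any of these genes, and METTL3 replicate b was the highest for GRHL2.

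The log2 fold change in MCF10AT1 was -6.90 for GRHL2 (SE 1.06, adjusted p = 0.00396 from limma), -6.28 for OVOL1 (SE 0.67, adjusted p = 0.000657) and -7.92 for OVOL2 (SE 0.65, adjusted p = 0.000202). OVOL1 and OVOL2 had means under 10 in the METTL3 libraries and passed the filter through the controls alone. Between pseudocounts of 0.5 and 5 the fold changes ran from -7.19 to -5.78 for GRHL2, from -6.89 to -4.47 for OVOL1 and from -8.42 to -6.39 for OVOL2. All of these calls were kept with each of the 6 libraries left out in turn.

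SNAI2, although a promoter of EMT, fell together with the epithelial factors in MCF10AT1. It measured 469, 339 and 865 in the controls and 55.2, 74.5 and 204 in the METTL3 libraries, so every METTL3 library was below every control. The log2 fold change was -2.44 (SE 0.56, adjusted p = 0.0249). The call was lost without METTL3 replicate a (adjusted p = 0.0846), METTL3 replicate b (0.105), control replicate a (0.0858) or control replicate c (0.0643) of this line, while the direction was kept.

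ZEB1 and ZEB2 had higher means in the MCF10AT1 METTL3 libraries. ZEB1 measured 1.36, 1.28 and 41.0 in the controls and 46.9, 33.6 and 148 in the METTL3 libraries, and control replicate c lay above METTL3 replicate b. ZEB2 measured 19.9, 2.04 and 45.7 against 92.2, 125 and 243, without overlap. In both groups replicate c held the highest value of each ZEB gene. The log2 fold changes of 3.37 for ZEB1 (SE 1.18, adjusted p = 0.104) and 3.31 for ZEB2 (SE 0.96, adjusted p = 0.0582) did not pass the threshold. Without control replicate c they were 4.76 (adjusted p = 0.0102) and 4.16 (adjusted p = 0.0231) and passed it, and for ZEB2 the value without control replicate b was 2.19 (adjusted p = 0.0488).

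TWIST2 measured 193, 348 and 159 in the MCF10AT1 controls and 579, 420 and 457 in the METTL3 libraries. The groups did not overlap, and the difference of 1.12 (SE 0.37, adjusted p = 0.0896) missed the threshold; without control replicate b it was 1.45 (adjusted p = 0.0268). TWIST1 measured 343, 278 and 172 against 387, 204 and 289, and SNAI1 measured 464, 172 and 348 against 745, 364 and 318. The groups of both genes overlapped, with log2 differences of 0.16 (SE 0.40, adjusted p = 0.830) for TWIST1 and 0.54 (SE 0.48, adjusted p = 0.510) for SNAI1.

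Of the 9 factors, 4 were called in MCF10AT1, all lower in the METTL3 libraries, where 13.0% of the genes tested were called in either direction. The groups did not overlap for 6 of the 9, against 32.8% of all genes tested. OVOL1 and OVOL2 are in both counts and passed the filter through the controls alone. A lower mean in the METTL3 libraries was thus built into their presence in the test. In MCF10AT1 the deviations of same-letter libraries from their group means correlated at 0.11 to 0.477. METTL3 replicate a was nonetheless closer to control replicate b (0.251) than to control replicate a (0.11), so the pairing by letter was partial. The fit with the replicate as a block is given beside the first. With the block 7 of the 9 were called, the 4 above and TWIST2 (adjusted p = 0.0356), ZEB1 (0.00522) and ZEB2 (0.00356), the last 3 higher in the METTL3 libraries, while 3939 genes were called over the whole table against 2091 without it.

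**Figure D3:**
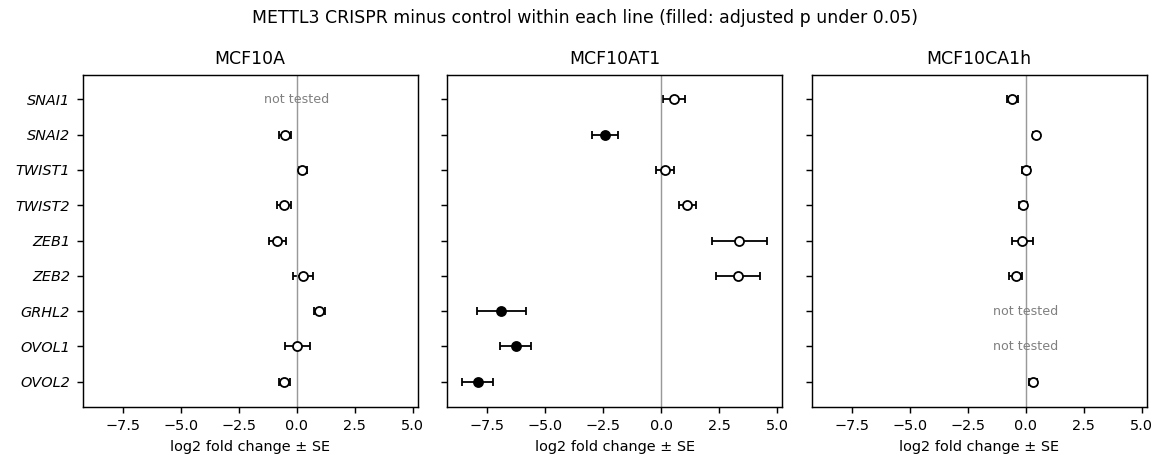
Log2 fold change with its standard error (bars) of the METTL3 libraries against controls for the 9 factors in each line, 3 libraries against 3, with filled circles for an adjusted p under 0.05 without the replicate block. In MCF10AT1 the 3 epithelial opponents and SNAI2 are filled and below 0, and no factor is filled in MCF10A or MCF10CA1h.

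In MCF10A none of the 8 factors tested was called without the block, where 2.65% of all genes were called. Of the 8 factors, 2 had an unadjusted p under 0.05, as did 2839 of the 15416 genes tested. GRHL2 measured 457, 473 and 282 in the controls and 881, 732 and 698 in the METTL3 libraries. Every METTL3 library was above every control, the reverse of its direction in MCF10AT1, and the log2 fold change was 0.96 (SE 0.24, adjusted p = 0.0772). Here same-letter libraries correlated at 0.116 to 0.221 in their deviations, and those of different letters at -0.17 to 0.00868. With the replicate block the adjusted p of GRHL2 was 0.0230, which made it the 1 factor called. It was also called without control replicate a (adjusted p = 0.0351).

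ZEB1 in MCF10A measured 83.2, 121 and 180 in the controls and 73.3, 52.0 and 82.0 in the METTL3 libraries. These groups did not overlap, with control replicate a just above METTL3 replicate c, and the difference was -0.84 (SE 0.35, adjusted p = 0.252). The groups failed to overlap for 2 of the 8 factors tested, against 23.9% of all genes tested. OVOL2, at 254, 255 and 171 against 173, 136 and 153, overlapped by a single pair of libraries (-0.54, adjusted p = 0.295).

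The other factors tested in MCF10A overlapped between groups. SNAI2 measured 3933, 4640 and 7459 against 2899, 3689 and 4472 (-0.50, adjusted p = 0.356). TWIST1 had METTL3 values of 231, 292 and 288 (0.23, adjusted p = 0.598), and TWIST2 of 136, 238 and 205 (-0.55, adjusted p = 0.379). ZEB2 measured 143, 467 and 150 in the METTL3 libraries against 173, 184 and 177, so that 1 library set the sign of its difference. That difference was 0.28 (adjusted p = 0.790), and without METTL3 replicate b it was -0.28. OVOL1 measured 259, 62.5 and 81.8 in the METTL3 libraries (0.01, adjusted p = 0.995), with replicate a alone above the controls.

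SNAI1 did not pass the filter in MCF10A. It measured 17.9, 9.03 and 15.9 in the controls and 5.44, 1.23 and 0 in the METTL3 libraries, which lay below every control. The difference of mean log2 values was -2.60, and p was 0.1 by the exact permutation test (two-sided), the smallest that 3 libraries against 3 allow. In the fit of all 18 libraries, where it was tested, its adjusted p was 0.0135, and in the fit of MCF10A alone without the filter it was 0.135.

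In MCF10CA1h none of the 7 factors tested was called, although 12.8% of all genes were. An unadjusted p under 0.05 was found for 2 of the 7, as for 4230 of the 15127 genes tested. SNAI2 measured 949, 805 and 712 in the controls and 1198, 1111 and 1016 in the METTL3 libraries, and SNAI1 measured 88.5, 95.9 and 87.1 against 73.0, 62.4 and 47.6. Every METTL3 library lay above the controls for SNAI2 and below them for SNAI1. The differences were 0.44 (SE 0.13, adjusted p = 0.0534) and -0.58 (SE 0.24, adjusted p = 0.140). These were the 2 of 7 factors tested whose groups did not overlap, against 32.7% of all genes tested. Without control replicate a of this line SNAI2 was called (adjusted p = 0.0442).

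The remaining factors overlapped between the MCF10CA1h groups. OVOL2 measured 292, 240 and 301 in the METTL3 libraries against 215, 208 and 250 (0.30, adjusted p = 0.25). The METTL3 values were 191, 174 and 186 for TWIST1, 215, 300 and 261 for TWIST2, 22.5, 12.4 and 33.1 for ZEB1 and 121, 57.6 and 102 for ZEB2, with log2 differences between -0.43 and 0.01. GRHL2 at 0, 2.37 and 0 and OVOL1 at 1.52, 0 and 0 were as close to 0 as in the controls and did not pass the filter. No fold is given for them, and the exact permutation test gave p = 1 and p = 0.3.

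Whether the METTL3 difference itself differed between lines was tested by contrasts of the log2 fold changes, fitted jointly to all 18 libraries. MCF10AT1 differed from MCF10A for 8 of the 9 factors, all but TWIST1, where 21.6% of all genes tested were called. The differences were 3.14 for SNAI1, 1.67 for TWIST2, 4.20 for ZEB1 and 3.03 for ZEB2, more toward higher values in MCF10AT1, and -1.94 for SNAI2, -7.86 for GRHL2, -6.29 for OVOL1 and -7.39 for OVOL2, more toward lower ones. For ZEB2 (adjusted p = 0.0427) the call was lost in 16 of 27 alternatives. These were 12 of the 18 fits without 1 library, with adjusted p up to 0.0992, a fit of these 2 lines alone (0.108), equal sums per library (0.0946), no filter on low values (0.0585) and no intensity trend (0.0547). The SNAI2 call (adjusted p = 0.0216) was lost in 5 such fits, with adjusted p up to 0.0589, and in the fit of 2 lines (0.0717). ZEB1 (adjusted p = 0.0197) was lost without MCF10AT1 control replicate a (0.0574) and in the fit of 2 lines (0.0572), and its difference was 5.60 (adjusted p = 9.02e-05) without MCF10AT1 control replicate c.

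MCF10CA1h differed from MCF10AT1 for 5 of the 9 factors, where 18.2% of all genes were called. The differences of effect were 2.88 for SNAI2, -3.74 for ZEB2, 6.51 for GRHL2, 5.55 for OVOL1 and 8.22 for OVOL2. For GRHL2 and OVOL1 this compares a fall in MCF10AT1 with a line in which both genotypes were near 0. ZEB1, at -3.53 (adjusted p = 0.0542), passed without MCF10AT1 control replicate c (-4.92, adjusted p = 0.000320). It also passed with the replicate block (0.0298), which here took a common effect per letter over all lines. Deviations of same-letter controls of MCF10AT1 and MCF10CA1h correlated at only -0.268 to 0.0528. TWIST2, at -1.24 (adjusted p = 0.0521), passed without MCF10AT1 control replicate b (-1.57, adjusted p = 0.00672), MCF10A METTL3 replicate a (0.0459) or MCF10A control replicate a (0.0422). Between MCF10CA1h and MCF10A the METTL3 difference of no factor was called, where 5.34% of all genes were. SNAI1 (2.02, adjusted p = 0.173) was the 1 factor with an unadjusted p under 0.05, as had 2775 of the 15897 genes tested. It was called without MCF10A METTL3 replicate a (2.72, adjusted p = 0.0354). The 3 interaction contrasts share libraries.

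The genes on which these factors are known to act were counted from lists written by hand, with earlier results of these data known. Their counts beside the share of all genes are therefore a description and not a test. Of 26 epithelial target genes 25 were tested in MCF10AT1, and 24 fell in the METTL3 libraries and none rose, where 13.0% of all genes tested were called. The median log2 fold change was -4.56, and that of all genes was 0.02. Of the 25, 6 had a mean under 10 in the METTL3 libraries and passed the filter through the controls alone. RAB25 (-9.81, SE 0.47), the serine protease PRSS8 (-9.42, SE 0.47) and the splicing factor ESRP1 (-8.89, SE 1.03) were among these. The sizes depend on the pseudocount, and between 0.5 and 5 they ran from -10.04 to -8.72 for RAB25, from -9.64 to -8.39 for PRSS8 and from -9.30 to -7.72 for ESRP1. CDH1, the adhesion molecule E-cadherin, measured 3475, 2105 and 6138 in the controls and 11.6, 31.7 and 79.2 in the METTL3 libraries (-6.79, SE 0.68, adjusted p = 0.000474). RAB25, CRB3 and AP1M2, whose promoters are printed above, were picked after their values were seen. All were below 10 in every MCF10AT1 METTL3 library. The other epithelial target genes whose promoters held the E-box were not. In METTL3 replicates a, b and c OCLN measured 5.78, 18.15 and 6.72, and CDS1 measured 37.6, 25.55 and 49.98. PATJ measured 216.9, 222.1 and 366.2, and DSP measured 336.4, 357.1 and 563.8. A link between the E-box and the size of the fall was not tested. RAB25 went from 3450, 4741 and 2037 to 2.02, 1.76 and 4.5.

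CRB3 in MCF10AT1 went from 188, 292 and 219 to 0, 4.49 and 1.90, a log2 fold change of -6.52 (SE 0.71). AP1M2 went from 1910, 3542 and 999 to 2.19, 1.90 and 7.61, or -8.78 (SE 0.62). Neither gene passed the threshold in MCF10A (CRB3 adjusted p = 0.820, AP1M2 adjusted p = 0.262) or in MCF10CA1h (0.307 and 0.480). RAB25 was near 0 in both MCF10CA1h groups, between 0 and 10.2, and was not tested there.

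The mesenchymal genes moved the other way in MCF10AT1. Of 16 listed, 13 were tested, 10 rose in the METTL3 libraries and none fell, against the same 13.0% of all genes, with a median of 3.85. The matrix proteins FN1 (10.08, SE 0.36) and SPARC (7.45, SE 0.48) rose, as did CDH2, which is N-cadherin (7.39, SE 0.70). Of the 13, 2 passed the filter through the METTL3 libraries alone. CDH2 was one of them, with a control mean of 1.61, and its difference ran from 7.94 to 5.78 between pseudocounts of 0.5 and 5. CDH2 measured 0.72, 0 and 4.1 in the controls and 243, 362 and 468 in the METTL3 libraries. VIM, the intermediate filament vimentin, rose by 4.08 (SE 0.28, adjusted p = 8.87e-05), and MMP2, a gelatinase, rose by 5.10 (SE 0.32, adjusted p = 5.31e-05).

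In MCF10A, where 2.65% of all genes were called, 1 of 25 epithelial target genes was called, the tight junction gene CLDN7, which was lower (-0.96, SE 0.17, adjusted p = 0.0281). Of 12 mesenchymal genes tested 2 were called, ITGA5 (-1.78, SE 0.24) and FSTL1 (-1.80, SE 0.36), both lower. With 1 library left out these counts ran from 0 to 3 and from 0 to 5. CDH1 (-0.19, adjusted p = 0.715), CDH2 (-0.66, adjusted p = 0.481) and VIM (-0.93, adjusted p = 0.113) were not called. MMP2 measured 142, 67.2 and 24.2 against 548, 337 and 312, without overlap (2.63, SE 0.57, adjusted p = 0.0576).

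In MCF10CA1h 5 of 24 epithelial target genes were called, 4 lower and 1 higher, where 12.8% of all genes were, and the count was 2 to 4 with 1 library left out. They were led by TJP3 (-2.16, SE 0.51), PRSS8 (2.06, SE 0.26) and OCLN (-1.29, SE 0.27). Of 13 mesenchymal genes 4 rose (3 to 5 called with 1 library left out), led by FN1 (1.92, SE 0.16), FSTL1 (1.39, SE 0.28) and ITGA5 (1.07, SE 0.12). CDH1 (0.19, adjusted p = 0.327), CDH2 (-0.04, adjusted p = 0.922), VIM (0.23, adjusted p = 0.231) and MMP2 (-0.61, adjusted p = 0.0622) did not pass the threshold. The list medians were -0.06 for the epithelial and 0.38 for the mesenchymal genes, where the median of all genes was -0.02. In MCF10A they were -0.09 and -0.19, against 0.00 for all genes.

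**Figure D4:**
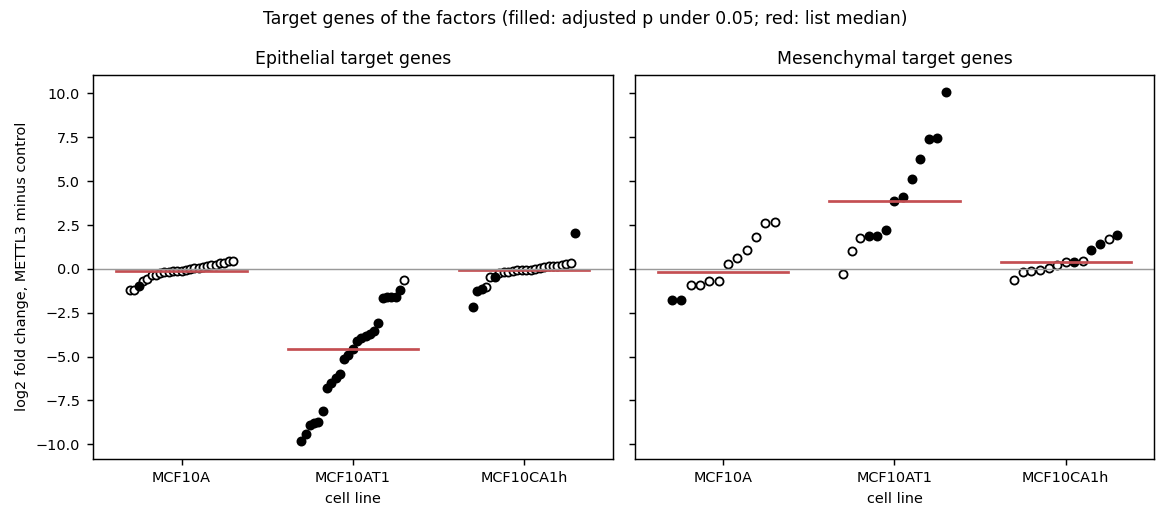
Log2 fold change of METTL3 libraries against controls for each tested epithelial (left) and mesenchymal (right) target gene in the 3 lines, 3 libraries against 3, with filled circles for an adjusted p under 0.05 and a red line at the list median. In MCF10AT1 24 of 25 epithelial genes are filled below 0 and 10 of 13 mesenchymal genes are filled above 0.

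Other transcription factors of both kinds were counted too. Of 13 further EMT-promoting factors, GSC and TBXT had no row with values, and 9 were tested in MCF10AT1. Of these 3 were called, and 1 to 3 with 1 library left out, among them FOXC2, which rose (1.64, SE 0.35) and FOXQ1, which fell (-3.98, SE 0.48). Of 12 further epithelial factors tested there, 5 fell and 1 rose, where 13.0% of all genes were called, and 3 to 7 were called with 1 library left out. ELF3 was among those that fell (-7.00, SE 0.51), and GRHL3, a paralog of GRHL2, was the one that rose (3.91, SE 0.69). MCF10A had no call in either list. In MCF10CA1h HMGA2 was higher (0.81, SE 0.11), and FOXC2 (-0.76, SE 0.13) and the epidermal factor ZNF750 (-2.59, SE 0.51) were lower.

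The host transcripts of the microRNAs fell with the epithelial factors in MCF10AT1. MIR200CHG, which carries miR-200c and miR-141, measured 105, 223 and 58.3 in the controls and 25.4, 1.86 and 3.65 in the METTL3 libraries (-3.99, SE 0.91, adjusted p = 0.0236). MIR205HG, the host of miR-205, measured 1722, 3585 and 1047 against 25.6, 23.2 and 48.5 (-5.88, SE 0.51, adjusted p = 0.000253). No library of the METTL3 group reached the controls for either transcript. These were the 2 of 5 host and antisense RNAs called in that line, where 13.0% of all genes were called. The count was 1 to 2 with 1 library left out and 2 to 3 over the other settings. ZEB1-AS1, transcribed beside ZEB1 on the other strand, was at 0.39 (adjusted p = 0.776). In MCF10A and MCF10CA1h none of this list was called.

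Among 15 inducing and opposing signals, all tested in MCF10AT1, 4 rose and none fell, where 13.0% of all genes were called. The count was 1 to 5 with 1 library left out and 2 to 8 over the other settings. The 4 were led by BMP7 (7.33, SE 0.68), which passed the filter through the METTL3 libraries alone, the ligand TGFB1 (1.51, SE 0.35) and its transducer SMAD3 (1.5, SE 0.30). In MCF10A BMP4 rose (1.56, SE 0.31) and ID1 fell (-1.45, SE 0.17) of 14 tested. In MCF10CA1h 2 rose and 3 fell of 15, led by ID2 (-1.22, SE 0.30), BMP7 (-1.04, SE 0.24) and the receptor gene TGFBR2 (0.90, SE 0.10). Of 13 co-repressors 1 was called in MCF10AT1 and in MCF10CA1h, WTIP (1.65, SE 0.45, and 0.70, SE 0.17), and none in MCF10A. These counts lay below the 13.0% and 12.8% of all genes called, and over the other settings they ran from 0 to 4 and from 0 to 2. Of 10 regulators of the proteins' stability 1 was called, GSK3B in MCF10CA1h (0.63, SE 0.11).

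Markers of cell types were read beside these results. Of 11 breast epithelial markers, 10 or 11 had a mean of at least 10 in every group, and their summed value ran from 133977 to 215861 in the MCF10AT1 controls and from 107115 to 202687 in the METTL3 libraries. In MCF10AT1 5 of the 11 fell (CDH1, EPCAM at -5.16, KRT17 at -4.47, KRT5 at -4.24 and KRT14 at -2.36), and none was called higher, where 13.0% of all genes were called. Among those not called, KRT8 (23432, 22713 and 14037 in the controls against 19882, 15446 and 9545) and KRT18 (34007, 48394 and 18503 against 28075, 27864 and 13608) overlapped. LAMB3, not called either, measured 10632, 16915 and 14544 against 3891, 8402 and 8739. ITGB4 was the largest marker in each METTL3 library of this line, so the sums there leaned on it. It measured 29884, 51829 and 21514 in the controls against 48088, 92425 and 167977. TP63 measured 216.2, 111.3 and 744.5 against 517.5, 410.6 and 749.4. In MCF10A 1 of 10 was called, KRT5, which rose (0.90, SE 0.18), where 2.65% of all genes were called. In MCF10CA1h 5 of 10 rose, where 12.8% of all genes were called, led by KRT14 (2.15, SE 0.17), LAMB3 (1.43, SE 0.15) and KRT17 (0.71, SE 0.11). The 10 fibroblast markers summed to between 476 and 744 in the MCF10AT1 controls and between 3716 and 4898 in the METTL3 libraries, where THY1 (9.61, SE 0.47), COL3A1 (8.95, SE 0.69) and COL6A3 (6.20, SE 0.62) rose, all 3 of which passed the filter through the METTL3 libraries alone. A mean of 10 or more was reached by 4 of the 10 in the controls and 7 in the METTL3 libraries. Of the matrix genes among them DCN measured 538, 370 and 264 in the controls and 646, 429 and 976 in the METTL3 libraries, and COL1A1 measured 94.3, 46.2 and 211 against 60.7, 77.0 and 108. In the METTL3 libraries COL1A2 was at 0, 0 and 5.72 and LUM at 0, 0.46 and 0. The part of these markers in the loss of the epithelial factors was not tested.

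The fibroblast sums were 1961 to 2302 in the controls and 1501 to 4481 in the METTL3 libraries of MCF10A, where none of 4 was called, and 1498 to 1832 and 2753 to 2897 in MCF10CA1h, where FAP (0.96, SE 0.15) and DCN (0.87, SE 0.15) rose and COL3A1 fell (-1.22, SE 0.32). The 7 endothelial markers summed to between 52.7 and 867 over all groups, and 1 was called within a line, PECAM1 in MCF10CA1h (-1.20, SE 0.33). The 6 leukocyte markers summed to between 325 and 2978. The highest sum was in an MCF10AT1 METTL3 library, and that group ran from 1982 to 2978 against 807 to 1544 in its controls, and CD14 measured 2342, 1745 and 2138 there against 1378, 799 and 517. None of 3 tested was called in that line, and CD68 (1.05, SE 0.23) and CD14 (-1.14, SE 0.26) were called in MCF10CA1h. PTPRC, the pan-leukocyte phosphatase CD45, was at 0 in all 6 MCF10AT1 libraries.

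Finally, the genes whose pattern over the 18 libraries was most like that of each factor were named, by Pearson's r of log2 values among 12460 genes with a mean of at least 50. The points share lines and clones, so r is a description. OVOL2 was most like CRB3 (r = 0.987) and was also close to MARVELD3 (0.979), a tight junction gene, OVOL1 was most like SLC6A11 (0.981) and RAB25 (0.970), and GRHL2 was most like TMEM30B (0.974), PROM2 (0.964) and SLC6A11 (0.962). SNAI2 was most like SERPINB5 (0.987), EHBP1 (0.987) and PKP2 (0.984), of which SERPINB5 and PKP2 are epithelial genes.

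SNAI1 was most like ACSL5 (0.960), MARCKSL1 (0.957) and WNK2 (0.952), and its r with SNAI2 was -0.845. ZEB1 was most like CPEB4 (0.930), LTBP1 (0.901) and OSMR (0.889), and ZEB2 like GALNT1 (0.944), NHSL1 (0.918) and NECTIN3 (0.885). The ZEB genes had an r of 0.822 with each other. The highest values were lower for TWIST2, with FURIN (0.900) and SHROOM1 (0.888), and for TWIST1, with LPAR6 (0.825), CD47 (0.823) and ZMPSTE24-DT (0.807).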

How the data were processed

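RNA of 18 libraries was analysed, 3 replicates for each of 6 groups taken from the sample titles. According to the labels' protocol, stranded total RNA libraries were made after depletion of ribosomal RNA, while the labels also name polyA RNA, a conflict that was not settled. The authors pseudo-aligned reads to the human transcriptome with kallisto 0.46.1, summed them to genes and normalized them with DESeq2 1.26.0. The deposited table holds the resulting normalized counts, a signal not scaled by gene length, so levels were not compared between genes. Of 60579 rows 24646 held no gene ID and values, 35894 genes had a symbol, and 294 genes whose symbol was held by a gene with higher values were kept under their ID. Between 14.9% and 37.1% of low values were whole multiples (tolerance 0.02) of the commonest low value, so reads were not recovered and depth per gene is unknown. Size factors recomputed by the median of ratios were between 1.013 and 1.018.

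Python 3.11.15 and R 4.3.3 with limma 3.58.1 (lmFit, eBayes with an intensity trend) were used on log2(normalized count + 1) after a filter that removed genes averaging under 10 in the libraries fitted, and p was two-sided and adjusted by Benjamini-Hochberg over all genes tested. Each line was fitted alone, controls in 1 fit of 9 libraries and interactions in 1 fit of 18. Members under the filter were tested by exact permutation. The script was tested on simulated data. Coordinates are from GENCODE 44 (hg38), and promoter and microRNA sequences from RefSeq tables. Named were all 9 factors in every library, the 3 called genes with the largest change per list and line, CDH1, CDH2, VIM and MMP2, markers of other cell types and the 3 genes most alike, of which those without a symbol were left out; some list genes named by this rule are not reported here. KRT5 and KRT14 in MCF10AT1 and the genes whose promoters are printed were named after their values were seen. The factors and the gene lists were chosen with earlier results of these data known. The replicate letters come from the titles, and nothing states that a letter marks a shared day or batch. Deviations from group means of same-letter libraries had correlations of 0.116 to 0.221 in MCF10A, 0.11 to 0.477 in MCF10AT1 and -0.0112 to 0.046 in MCF10CA1h. Those of different letters ran from -0.17 to 0.00868 in MCF10A and from -0.413 to 0.251 in MCF10AT1. Same-letter controls of different lines ran from -0.25 to 0.284 (MCF10A and MCF10AT1), -0.144 to 0.161 (MCF10A and MCF10CA1h) and -0.268 to 0.0528 (MCF10AT1 and MCF10CA1h). The letters were taken to pair libraries in the first 2 lines, although METTL3 replicate a of MCF10AT1 was closest to control replicate b. Alternatives were pseudocounts of 0.5 and 5, no filter or a minimum mean of 50, a fit without the trend, other scalings, other sets of libraries in a fit, the replicate block and each library left out.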

Additional observations from a re-analysis of the deposited data

Results flagged for a closer look

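The METTL3 difference differed between lines for 8 factors by interaction contrasts of limma, each a difference of log2 fold changes. Against MCF10A, the difference in MCF10AT1 was -7.86 for GRHL2, -6.29 for OVOL1, -7.39 for OVOL2, -1.94 for SNAI2, 3.14 for SNAI1, 1.67 for TWIST2, 4.20 for ZEB1 and 3.03 for ZEB2, with adjusted p from 1.43e-07 for OVOL2 to 0.0427 for ZEB2. The call was lost in 16 of 27 alternatives for ZEB2, in 6 for SNAI2 and in 2 for ZEB1, and 5 of the 8 were called in a fit of those 2 lines. Against MCF10AT1, the difference in MCF10CA1h was 6.51 for GRHL2, 5.55 for OVOL1, 8.22 for OVOL2, 2.88 for SNAI2 and -3.74 for ZEB2. GRHL2 moved in opposite directions, with every METTL3 library above the controls in MCF10A and below them in MCF10AT1. Values near 0 entered these contrasts for SNAI1 in MCF10A, for GRHL2 and OVOL1 in MCF10CA1h, for GRHL2, OVOL1 and OVOL2 in the MCF10AT1 METTL3 libraries and for ZEB1 in a pair of MCF10AT1 controls, so the size of their differences depends on the pseudocount. Over the settings the first contrast of OVOL2 ran from -7.88 to -5.86 and the second from 6.69 to 8.72.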

How the results depend on the processing

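Over 78 results, 1573 alternative values were computed, of which 1469 kept their direction and their side of the threshold, 45 lost and 30 gained a call, and 29 changed sign; the cause was not tested. The number of factors called in MCF10A was 0 and became 1 in the joint fit of 18 libraries (SNAI1) and 1 with the replicate block (GRHL2). In MCF10AT1 it was 4 and became 7 in the joint fit and 7 with the block. In MCF10CA1h it was 0 and became 1 with a mean of at least 50 and 1 with the block (SNAI2, adjusted p = 0.0419), where the letters share only a name. The interaction of MCF10AT1 and MCF10A called 8, and 5 in a fit of those 2 lines. The block changed the number called in one other comparison, the interaction of MCF10CA1h and MCF10AT1, from 5 to 6 (ZEB1, adjusted p = 0.0298). There the block took a common effect per letter over all lines, although letters were not shown to pair libraries across lines. With each library left out in turn, factors called ranged from 0 to 1 in MCF10A, 3 to 6 in MCF10AT1, 0 to 1 in MCF10CA1h, 3 to 5, 4 to 5 and 2 to 8 in the comparisons of controls (MCF10AT1 and MCF10A, MCF10CA1h and MCF10A, MCF10CA1h and MCF10AT1) and 6 to 8, 0 to 1 and 5 to 6 in the interactions in that order. All genes called ranged from 237 to 1172 in MCF10A, 1643 to 5146 in MCF10AT1 and 248 to 2078 in MCF10CA1h over the settings, and from 52 to 1418, 1020 to 2439 and 1089 to 1785 with a library left out. Equal sums per library turned the sign of small differences that were never called: TWIST1 in MCF10AT1 (-0.0035) and MCF10CA1h (-0.048), and between controls OVOL1 (-0.021, MCF10AT1 and MCF10A), TWIST2 (-0.0046) and OVOL2 (-0.018, both MCF10CA1h and MCF10A). Leaving out a library turned others, whose ranges were -0.28 to 0.57 for ZEB2 and -0.60 to 0.41 for OVOL1 in MCF10A, -0.12 to 0.40 for TWIST1 in MCF10AT1, and -0.067 to 0.090 for TWIST1, -0.23 to 0.0067 for TWIST2 and -0.49 to 0.19 for ZEB1 in MCF10CA1h. Between controls they were -0.063 to 0.43 for TWIST1 and -0.30 to 0.38 for OVOL1 (MCF10AT1 and MCF10A), and -0.12 to 0.25 for TWIST2 and -0.19 to 0.10 for OVOL2 (MCF10CA1h and MCF10A), and in the interactions of TWIST1 -0.35 to 0.16 and -0.39 to 0.13. Depth per gene is unknown, so the counting error of values near 0 could not be given.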
